A study of Mus musculus with 6 samples.

Results

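Short exonic circular RNAs (circRNAs) were defined as circles that the deposited tables class as exonic and whose end minus start, the span on the genome, was under 1000 bp. They numbered 737 of the 10413 exonic circles and of the 11895 circles of every type listed in at least 1 library. They came from 659 of the 3635 genes with an exonic circle. The choice used only the type and the span, so reads, linear counts and recurrence were free to vary. Just inside the limit, among circles listed in all 6 libraries, lay those of Chd9 (span 996 bp, 35 reads), Apba2 (993 bp, 39 reads) and Rtn2 (975 bp, 114 reads), and just outside it those of Utp20 (1003 bp, 49 reads), Qrich1 (1031 bp, 153 reads) and a second circle of Pwwp2a (1033 bp, 30 reads).

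An exonic circRNA forms when the spliceosome joins the 5′ splice site at the end of an exon back to the 3′ splice site at the start of the same exon or of one upstream of it. The closed ring has no free ends, resists exonucleases and is therefore long-lived, and many such rings are abundant in neurons. A circle with a short span can hold only 1 exon or a few close ones.

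The libraries were made from hippocampus, as the labels name the tissue, of healthy male C57BL/6 mice aged 14 months. The DHT group of 3 libraries came from mice given dihydrotestosterone, an androgen that aromatase does not convert to oestrogen, by an injection under the skin every morning for 14 days. The oil group of 3 libraries came from mice given an equal dose of corn oil, the vehicle, by the same schedule. Whether a library holds 1 animal or several is not in the labels, so a p-value sets differences against the spread of libraries, part of which may be technical.

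The DHT libraries held 43512 to 55325 back-splice junction reads out of 143 to 177 M (mega) mapped reads, and the oil libraries 43573 to 48212 out of 154 to 159 M. Of 9 marker genes of the striatum, 8 averaged over 5 FPKM. They included Penk, an opioid peptide precursor, at 120 FPKM and Ppp1r1b, a phosphatase inhibitor regulated by dopamine, at 71.0 FPKM. Of 13 hippocampal marker genes measured, 4 averaged over 5 FPKM. Neurod6, a transcription factor of hippocampal pyramidal cells, was listed at 0 in 5 libraries and at 0.257 FPKM in DHT 1, and Neurod2 was listed at 0 in all 6. The summed striatal list ran from 185 to 349 FPKM with DHT and from 266 to 296 FPKM with oil, and its part in the results was not tested. In such tissue RNA, fewer cells of a type and less RNA per cell cannot be told apart.

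Sequence was read at 14 ends of 13 short circles, which lay inside the promoter windows of RefSeq (GRCm38.p6), the only genomic sequence available here. All 14, which were 11 acceptors and 3 donors, had the standard dinucleotide directly outside the circle, AG before an acceptor and GT after a donor. The same was true of all 134 such ends of longer exonic circles. Whether the calling of circles required these dinucleotides is not known here. If it did, these counts were fixed in advance, so they are given as a description only. The 4 acceptors with most reads are shown 5′ to 3′ on the strand of the circle, with the intron before and the exon after the AG in capitals.
Atp2b4 acceptor, chr1:133753735-133753764, minus strand: gcatctctattccAGaggcctagccctcat
Scn8a acceptor, chr15:100936256-100936285, plus strand: ttgctgttcttccAGagccgacctgtcccg
Sptbn1 acceptor, chr11:30219758-30219787, minus strand: cttttttactcacAGaactctgaaaagtaa
Klc2 acceptor, chr19:5114157-5114182, minus strand: tggctgcacAGgtgatcctggcatta

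Of these, the Atp2b4 circle (a plasma membrane calcium pump) had 101 reads and was listed in all 6 libraries, the Scn8a (a voltage-gated sodium channel) and Sptbn1 (a spectrin) circles had 20 and 17 reads in 4 libraries each, and the Klc2 circle (a kinesin light chain) had 15 reads in 3 libraries.

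One whole circle lay inside a window. It spanned the 143 bases of chr11:93304505-93304647 in Car10, a gene of the carbonic anhydrase family, and is shown with 15 bases of intron on each side and with the acceptor AG and donor GT in capitals. The back-splice line gives the last and first 15 bases of the exon as the circle joins them, with the 4 bases at the join in capitals. This circle had 6 reads in oil 2 and was listed in no other library, and 51.0% of its bases were G or C.
Car10 exon, chr11:93304490-93304662, plus strand: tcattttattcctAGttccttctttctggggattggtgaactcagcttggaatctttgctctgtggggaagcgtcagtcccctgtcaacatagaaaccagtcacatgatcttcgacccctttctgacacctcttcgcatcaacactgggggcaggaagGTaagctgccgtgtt
Car10 back-splice: actgggggcaggaAGTTccttctttctggg

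Spans ran from 135 to 999 bp with a median of 504 bp. At least 118 short circles (16.0%) had the coordinates of exactly 1 exon in the deposited event tables, against 1.13% of the 8336 exonic circles of 1 to 50 kb and 0 of the 1340 over 50 kb, and the event tables hold only exons with a recorded event. The limit on span bears on that share by construction. Of the short circles, 180 shared their acceptor end and 110 their donor end with a longer exonic circle, and 34 shared both. For 260 the short circle was its host's only exonic circle, and 388 held at least 50% of their host's exonic junction reads. Circles lay all along their hosts, with a median position 51.3% of the way from the 5′ end. Of the 720 short circles with a host in the RefSeq table, 718 lay within its bounds.

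Of the exons that were equal to a short circle, 57 were also recorded as cassette exons, which a transcript may keep or skip. Of these, 49 events averaged at least 0.5 FPKM and gave a share in every library. In the 49 the exon was kept in a median of 96.1% of the event's FPKM. The median was 69.1% over 13157 cassette exons of any kind that met the same conditions. The 49 exons had a median length of 396 bases, against 105 bases over the 13157. Ncam1, a neural cell adhesion molecule, had the exon of its circle (134 reads) kept in 38.8% of FPKM with DHT, against 35.8% with oil, while Pcmtd1, an isoaspartate methyltransferase relative, had it kept in 97.2% with DHT and 92.0% with oil.

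The 737 circles gave 18958 junction reads, which was 7.25% of all exonic junction reads, and 10 circles gave 28.4% of them. A back-splice junction is 1 site whatever the length of the circle, so reads were not divided by length. Whether circles of different lengths are recovered equally well was not tested. The circle of Gm9762 had the most, at 160, 185 and 173 reads with DHT, against 142, 160 and 147 with oil. Zfp609, a zinc finger gene whose human counterpart gives a well-studied single-exon circle, had 118, 105 and 86 reads with DHT, against 73, 85 and 104 with oil. Both circles were high in every library and their groups overlapped.

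More of the top 10 came from chromatin and transcription genes. Pwwp2a, which binds nucleosomes with the histone variant H2A.Z, had 120, 93 and 80 reads with DHT, against 78, 88 and 93 with oil, and Med13l, a subunit of the Mediator kinase module, had 102, 104 and 80 reads with DHT, against 94, 91 and 74 with oil. The transcription factor gene Nfix had 58 to 104 reads with DHT, against 72 to 88 with oil. Groups overlapped for all 3.

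Kcnj6, which encodes an inwardly rectifying potassium channel, had 139, 53 and 103 reads with DHT, against 84, 94 and 60 with oil, a wide spread within both groups. Tmem132d, a transmembrane protein gene, had 117, 95 and 51 reads with DHT, against 70, 45 and 53 with oil, and its log2 fold change of 0.51 ± 0.27 (SE, n = 3 against 3) had an edgeR p of 0.0783 and an adjusted p of 0.996. Of the other 9, the edgeR log2 fold changes lay between -0.27 (Pcmtd1) and 0.19 (Kcnj6).

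The last 3 were 2 long non-coding RNAs and Pcmtd1. Snhg11, a snoRNA host gene, had 69 to 106 reads with DHT, against 72 to 76 with oil. Pvt1, a non-coding neighbour of the Myc gene, had 61 to 77 reads with DHT, against 56 to 77 with oil. Pcmtd1 had 57 to 76 reads with DHT, against 66 to 76 with oil. None of the 3 separated the groups.

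**Figure D1:**
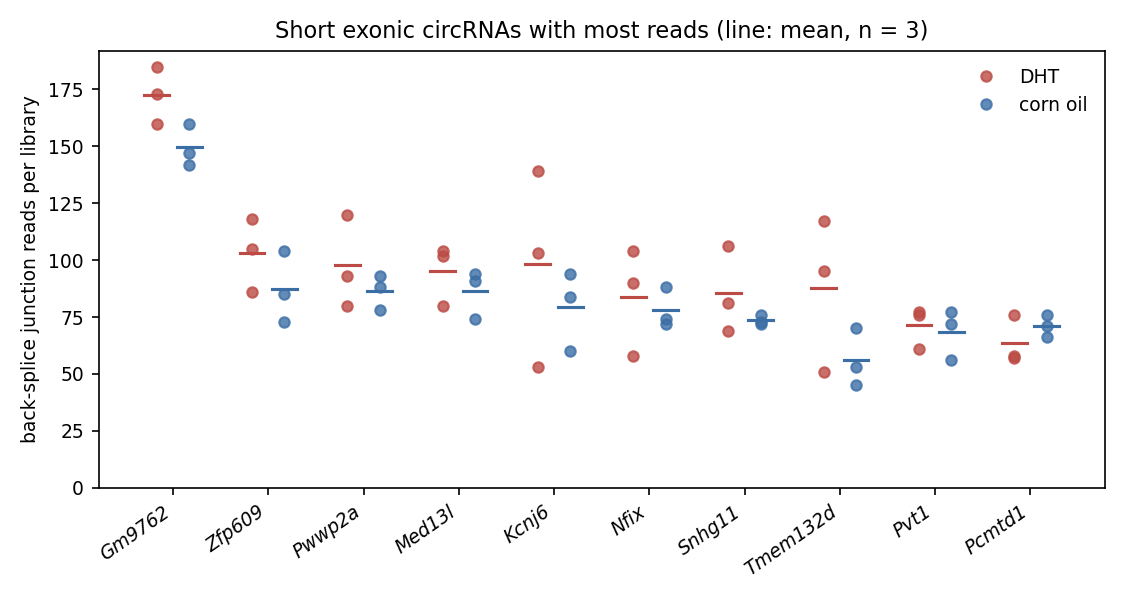
Back-splice junction reads per library (vertical axis) of the 10 short exonic circRNAs with most reads, with DHT libraries left and corn oil libraries right of each host name, points for libraries and lines for group means. The 2 groups overlap for all 10 hosts, from Gm9762 with 142 to 185 reads to Pcmtd1 with 57 to 76.

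The circular share is the junction reads divided by the sum of junction reads and the linear counts deposited beside them. A library that does not list a circle has no linear count for it and adds nothing to its share. Among the 70 short circles with at least 60 reads it ran from 0.504% to 58.1% with a median of 9.51%, against medians of 7.55% for 678 circles of 1 to 50 kb and 5.92% for 76 over 50 kb. It was over 50% in 2 of the 70, Zfp609 (58.1%) and Setbp1 (55.6%), a gene named for its binding of the SET protein, and over 20% in 18. Pvt1 reached 45.6%, Pwwp2a 39.2% and Alg12, a mannosyltransferase of N-glycan assembly, 36.2%.

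At the low end stood genes with many linear counts. Gabbr1, a GABA-B receptor subunit, had a share of 0.504% (63 reads beside 12437 linear counts), and Sv2b, a synaptic vesicle protein, 0.991%. Abhd8, Tcf25 and Grin2b, the last a subunit of the NMDA receptor, had shares of 1.26%, 1.30% and 1.40%. Those of Abhd8 and Grin2b leave out oil 2 and oil 1, which did not list the respective circle. Ppp3ca, the catalytic subunit of calcineurin, had 54 reads beside 33943 linear counts. Across the 70 circles the Spearman correlation of share with span was 0.039, a description over circles that share libraries and hosts.

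Zfp609 had 63.4%, 55.0% and 62.3% with DHT, against 52.5%, 53.1% and 61.5% with oil. Setbp1 had 53.4%, 58.4% and 46.0% with DHT, against 61.5%, 63.0% and 52.2% with oil. The groups overlapped for both circles. Pvt1 had 47.8%, 50.7% and 47.7% with DHT, against 43.1%, 43.3% and 41.5% with oil, without overlap, and its log2 change in the ratio of circle to linear reads was 0.35 ± 0.30 (SE, n = 3 against 3, limma adjusted p = 0.941).

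**Figure D2:**
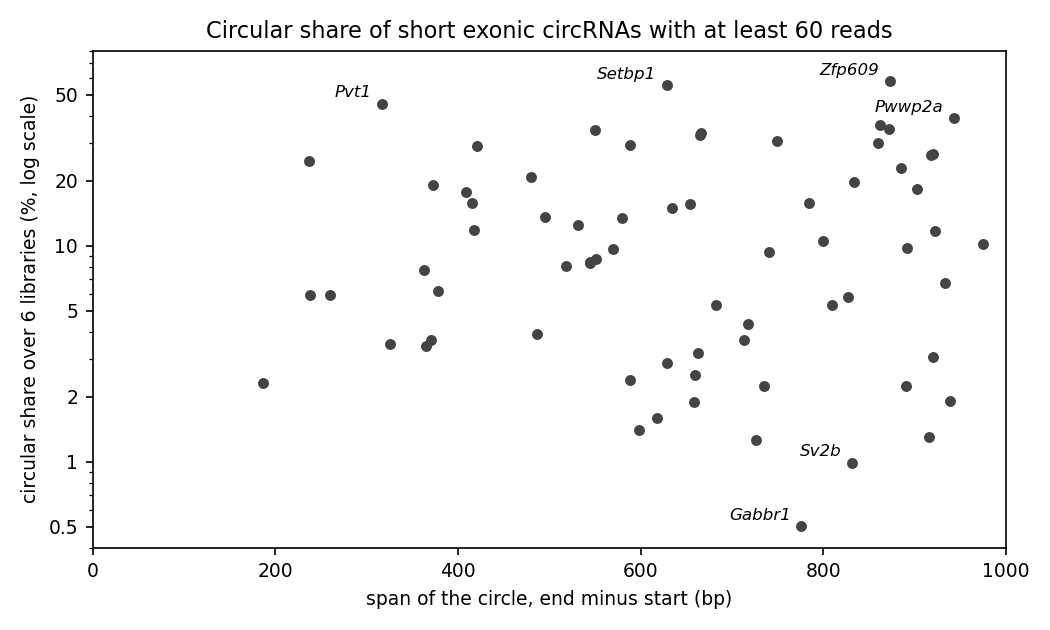
Circular share over those of the 6 libraries that list the circle (vertical axis, percent, log scale) against its span in bp (horizontal axis). Each point is 1 of the 70 short exonic circRNAs with at least 60 reads. Shares run from 0.504% (Gabbr1) to 58.1% (Zfp609).

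Set against longer exonic circles within each library, the short class had a lower pooled circular share than circles of 1 to 50 kb, 1.69% to 2.51% against 2.48% to 2.87%. The mean difference was -0.501 ± 0.162 percentage points (SD, n = 6), with the short class lower in 6 of 6 libraries (exact two-sided sign-flip permutation p = 0.03125, the smallest 6 libraries can give, adjusted p = 0.0938 over 6 comparisons). A listed short circle was found in all 5 other libraries more often than a circle over 50 kb, by 4.02 ± 1.63 percentage points (SD, n = 6), again in 6 of 6 libraries (exact permutation p = 0.03125, adjusted p = 0.0938). Neither passed the adjusted threshold of 0.05, nor did the other 4 comparisons. The median of the abundant short circles was above that of circles of 1 to 50 kb while the pooled share of the class was below it. By the median over listed circles in place of the pooled share, the short class differed from circles of 1 to 50 kb by -0.00969 percentage points (adjusted exact permutation p = 0.875). Without the 4 short circles on the mitochondrial chromosome, the pooled share of the short class was 2.11% to 2.53% in place of 1.69% to 2.51%. The within-library difference was not tested in that setting. With 500 bp as the limit, circles of 500 bp or more joined the class up to 50 kb, and the direction of 5 of the 6 differences turned.

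Recurrence was lowest at the smallest spans. Of 72 circles under 200 bp, 2 were listed in all 6 libraries (2.78%), and of the 193 from 200 to 400 bp 23 were (11.9%). The counts in the 3 wider bins were 32 of 178 from 400 to 600 bp, 25 of 149 from 600 to 800 bp and 29 of 145 from 800 to 1000 bp. Median reads were 3 in the lowest bin and 9 in the highest. Among the shortest circles listed in all 6 were those of Hivep1, a zinc finger transcription factor gene, at 142 bp with 31 reads, Ppp3ca at 200 bp, Uhrf2, a ubiquitin ligase, at 233 bp with 32 reads, and Med13l at 237 bp.

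Of all 737, 333 were listed in 1 library, 113 in 2, 89 in 3, 45 in 4, 46 in 5 and 111 in 6. A circle enters a library's list only with at least 2 reads, and 308 of the 333 in 1 library had 5 reads or fewer. The one-library circle with most reads lay in Cdr1os, the host name that the files give to the locus of the abundant circle known as Cdr1as. It had 20 reads in oil 3 and no listing elsewhere. It lay inside the circle at chrX:61183248-61186174, which had 4868, 3921 and 3123 reads with DHT, against 3136, 3378 and 3830 with oil.

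**Figure D3:**
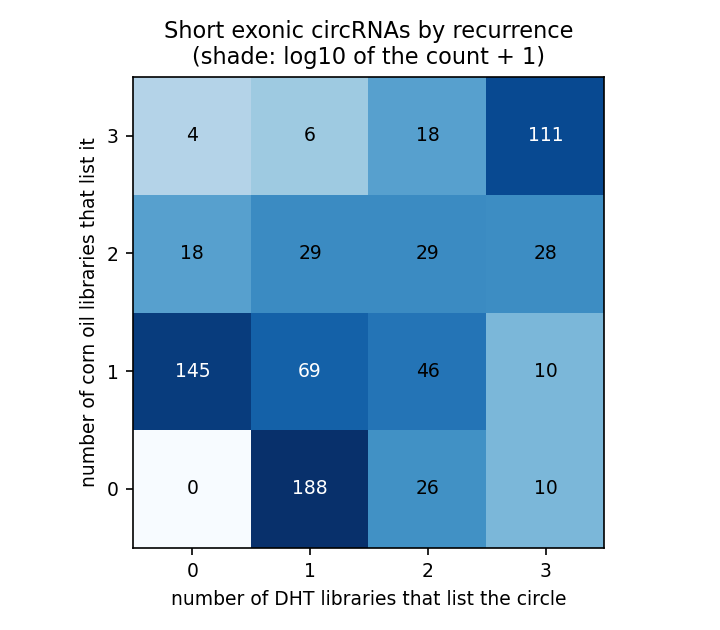
Number of short exonic circRNAs (digits) by how many DHT libraries (horizontal axis) and how many corn oil libraries (vertical axis) list them, with darker shade for a larger log10 of the count + 1. The 2 largest groups of circles are in 1 library only, 188 in DHT and 145 in oil, and 111 are in all 6.

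Abundance did not always bring a listing in every library. Of the 70 short circles with at least 60 reads, 5 (7.14%) were missing from some library, against 21 of 754 longer exonic ones (2.79%), a difference that was not tested. The missing library was oil 1 for 3 of the 5, those of Igf1r, Grin2b and Pik3r1. Igf1r, the receptor of insulin-like growth factor 1, had 34, 47 and 35 reads with DHT, against 0, 20 and 17 with oil. Pik3r1, a regulatory subunit of phosphoinositide 3-kinase, had 10, 9 and 10 reads with DHT, against 0, 16 and 15 with oil.

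Where a short circle and another circle on the same strand had both ends within 10 bases of each other, there were 9 such pairs, and both circles of each were short. The pairs differed only at the acceptor in 8 and only at the donor in 1 (Clvs1), and in 6 the 2 acceptors were exactly 3 bases apart (Bcl11b, Tcf4, Klhl8, Rad52, Elavl3 and Kmt2a). Acceptors spaced this way are known from alternative splicing, where the spliceosome uses either of a pair of AGs in tandem. For Elavl3, a neuronal RNA-binding protein, the circle at chr9:22036312-22036857 had 5, 11 and 7 reads with DHT and none in any library with oil. Its partner, with its acceptor end at 22036860, had 21, 0 and 0 reads with DHT, against 0, 13 and 15 with oil. Summed, the pair had 26, 11 and 7 reads with DHT, against 0, 13 and 15 with oil, so the groups overlapped. The listing of Elavl3 in DHT libraries alone did not hold for the pair.

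Among the other pairs, Rad52, a recombination protein, had 28, 43 and 35 reads with DHT, against 27, 25 and 39 with oil, and Bcl11b, a zinc finger factor of striatal and cortical neurons, had 25, 21 and 24 with DHT, against 25, 28 and 36 with oil. Kmt2a, a histone H3 lysine methyltransferase, had 19, 28 and 24 reads with DHT, against 14, 10 and 13 with oil, without overlap in these counts.

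Some short circles lay on the strand opposite their host. Of 627 with a known host strand, 23 did (3.67%), with 94 reads in all, and 19 of the 23 were in 1 library. Jup, which encodes the junction protein plakoglobin, had the most recurrent one, with 11 reads in 4 libraries, and Ddn, which encodes the dendritic protein dendrin, had 11 reads in 3. Trip12, a ubiquitin ligase gene, held 3 of the 23. Among circles of 1 to 50 kb, 13 of 7195 (0.181%) lay opposite, and among those over 50 kb 0 of 1150. Within libraries the share of listed circles that lay opposite was 0.761% to 3.33% for short circles and 0.129% to 0.199% for circles of 1 to 50 kb, higher for short circles in 6 of 6 libraries (exact sign-flip permutation p = 0.03125, the smallest possible, adjusted over 2 partner classes 0.03125). This comparison was chosen after the values were seen, and over circles in at least 2 libraries the mean difference was 0.669 in place of 1.66 percentage points. In that setting oil 1 had 0% for short circles and 0.0786% for circles of 1 to 50 kb, the share was higher for short circles in 5 of 6 libraries, and the threshold was missed (exact sign-flip permutation p = 0.0625, adjusted 0.0625). On the mitochondrial chromosome lay 4 short circles (in mt-Rnr2, mt-Nd6, mt-Cytb and mt-Co1), each in 1 library with 2 to 5 reads. All 4 were listed on the minus strand. They belong to the class by their deposited type and span alone, and whether they arose by splicing was not tested.

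Genes with several short circles were few, 68 of 659 hosts. Ash1l, a histone H3 lysine methyltransferase, had 4 with 100 reads, of which 85 belonged to the circle of 735 bp, with 10, 21 and 12 reads with DHT, against 19, 9 and 14 with oil. Gnptg, a subunit of the phosphotransferase that marks lysosomal enzymes, also had 4, with 60 reads, and 3 of them shared the end at 25235627. Grm5, a metabotropic glutamate receptor, had 3 with 141 reads, of which 126 belonged to the circle of 939 bp. Elavl3 and Ptms (parathymosin) had 3 each.

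By function, the hosts covered synapse, channel and chromatin genes. Of 32 postsynaptic genes with an exonic circle, 12 had a short one (37.5%), as did 8 of 32 presynaptic genes (25%), 7 of 30 ion channel genes (23.3%), 10 of 30 genes of RNA binding and splicing (33.3%), 17 of 50 chromatin genes (34%), 9 of 41 ubiquitin genes (22%) and 9 of 34 genes of motors and the cytoskeleton (26.5%), against 18.1% of all 3635 hosts. Of 37 genes known for circRNAs, 12 had one (32.4%). On a list of 18 steroid receptor and coregulator genes, 10 had an exonic circle and none of these had a short one. The list does not cover all coregulators, and Ep300, which is not on it, had 3 short circles with 36 reads. These shares are descriptions and were not tested.

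Within those lists, Nlgn1, a postsynaptic adhesion protein, had 21, 25 and 24 reads with DHT, against 19, 28 and 29 with oil, and Grm5 had 19, 25 and 15 in its main circle with DHT, against 22, 22 and 23 with oil. Rims2, an active zone protein, had 46 reads in all. Kcnn2, a calcium-activated potassium channel, had 116, Mbnl2, a splicing regulator, 94, Rbfox1, another splicing regulator, 53, Fbxw7, a ubiquitin ligase subunit, 48, and Dock10, an exchange factor for small GTPases, 42. In each list 0 short circles passed the adjusted edgeR test, and median log2 fold changes over the tested ones ran from -0.41 (genes known for circRNAs, 8 tested) to 0.72 (motors and cytoskeleton, 3 tested), beside -0.05 over all 172 short circles tested and 0.01 over all 2524 circles tested.

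The comparison of DHT with oil first asked whether the class as a whole differed. Short circles took 6.75%, 6.80% and 6.82% of all junction reads with DHT, against 6.21%, 6.37% and 6.79% with oil. The means were 6.79% ± 0.0398 with DHT and 6.46% ± 0.298 with oil (SD, n = 3 each), and the difference did not pass an exact two-sided permutation test (p = 0.2, where 3 against 3 cannot go below 0.1). Per M mapped reads there were 21.1, 20.3 and 20.7 short-circle reads with DHT, against 18.9, 18.9 and 18.9 with oil, with no overlap (exact permutation p = 0.1). Of exonic junction reads alone, short circles took 7.219%, 7.42% and 7.347% with DHT, against 6.851%, 7.045% and 7.682% with oil. There the groups overlapped (exact permutation p = 0.6).

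At an equal depth of 43512 junction reads, 315, 333 and 301 short circles were listed with DHT, against 297, 280 and 300 with oil (exact permutation p = 0.1). Reads were drawn at random once per library, apart from DHT 3, the smallest, which was kept whole. In that draw all DHT libraries listed more, the closest pair by 1 circle. The variation between draws was not tested. Without that thinning the counts were 354, 352 and 301 with DHT, against 305, 290 and 300 with oil, which overlapped. At equal depth with at least 3 reads to count as listed they were 239, 256 and 233 with DHT, against 232, 220 and 244 with oil, again with overlap (exact permutation p = 0.4).

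The pooled circular share was 1.69%, 2.11% and 2.51% with DHT, against 2.35%, 2.40% and 2.22% with oil (exact permutation p = 0.6). DHT 1, the lowest, held 2 of the mitochondrial circles, that of mt-Co1, an oxidase subunit, with 5 reads beside 40357 linear counts, and that of mt-Nd6, a dehydrogenase subunit, with 2 reads beside 6389. Without the 4 mitochondrial circles the share was 2.14%, 2.11% and 2.51% with DHT, against 2.53%, 2.40% and 2.27% with oil (exact permutation p = 0.3).

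**Figure D4:**
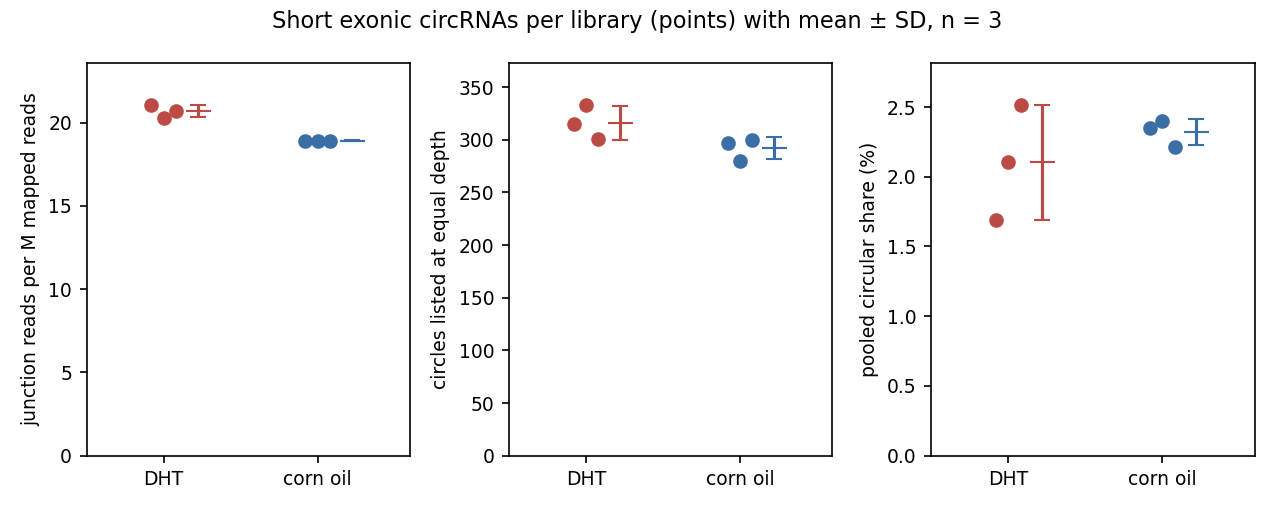
Junction reads of short exonic circRNAs per M mapped reads, number of short circles listed at equal depth and pooled circular share in percent, each axis starting at 0, with points for libraries and bars for the mean ± SD (n = 3), DHT left and corn oil right. Reads per M mapped reads are 20.3 to 21.1 in DHT and 18.9 in all oil libraries, and the shares overlap.

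For single circles, edgeR's quasi-likelihood test was run on every circle with at least 20 reads over the 6 libraries, and 172 of the 737 short ones entered it. None of the 172 passed an adjusted p of 0.05, as none of all 2524 did (0%). At an unadjusted p under 0.05, 7 short circles (4.07%) were higher in DHT, against 1.55% of all circles tested, and 3 (1.74%) were lower, against 1.58%. DESeq2 also called 0 short circles after adjustment (0% of all), and before it 9 higher (5.23%), against 1.86% of all circles tested, and 0 lower, against 1.03%. Without overlap between groups, 11 of the 172 (6.40%) were higher in DHT, against 5.74% of all, and 7 (4.07%) were lower, against 5.31%. The counts without overlap were close to those over all circles. Of the 7 circles higher by edgeR before adjustment, Cep164, Elavl3 and Atxn2 had reads in DHT libraries only. Of the 3 lower ones, Cdr1os had reads in oil 3 only. These circles entered the test through 1 group alone. With each library left out in turn, edgeR gave 4 to 9 higher and 0 to 4 lower short circles before adjustment.

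The smallest p among the higher ones was that of Cep164, a centriole protein needed for cilia, at chr9:45794052-45794429. It had 10, 8 and 10 reads with DHT and none in any library with oil, which gives a fold change in normalised reads of at least 2.87 if each oil library is put at the floor of 3 reads (edgeR adjusted p = 0.996). Tmcc1, an endoplasmic reticulum membrane protein gene, had 37, 29 and 36 reads with DHT, against 14, 8 and 18 with oil, without overlap. Its log2 fold change was 1.22 ± 0.35 (SE, edgeR adjusted p = 0.996).

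Grin2b had 25, 18 and 17 reads with DHT, against 0, 11 and 4 with oil, with a log2 fold change of 1.84 ± 0.67 (SE, edgeR adjusted p = 0.996). It was 1.26 without oil 1 and 3.12 without oil 2. Atxn2, which encodes the RNA-binding protein ataxin-2, had 9, 0 and 11 reads with DHT and none in any library with oil (edgeR adjusted p = 0.996), and its span of 999 bp was the largest of the class. The groups did not overlap for Grin2b and did for Atxn2, through DHT 2.

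Igf1r, described above, had an edgeR log2 fold change of 1.51 ± 0.60 (SE, adjusted p = 0.996) in the same test. With all circles of at least 6 reads tested in place of 20, it was 1.53 with an adjusted p of 0.0176, and it was the only short circle of 395 that passed in that run, where 6 of all 5972 circles did (0.1%). The calls on Igf1r therefore turned on the filter, with the same 6 counts behind them.

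Among the lower ones, Adamts3, a protease that trims procollagen, had 4, 4 and 6 reads with DHT, against 12, 12 and 9 with oil, without overlap (log2 fold change -1.32 ± 0.54, SE, edgeR adjusted p = 0.996). Aff2, a nuclear protein gene of the elongation factor family, had 24, 11 and 22 reads with DHT, against 41, 22 and 28 with oil, with overlap of DHT 3 and oil 2 in normalised reads (log2 fold change -0.78 ± 0.35, SE, edgeR adjusted p = 0.996). It was -0.48 without DHT 2 and -0.54 without oil 1. The third, Cdr1os, was the circle read in oil 3 alone.

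**Figure D5:**
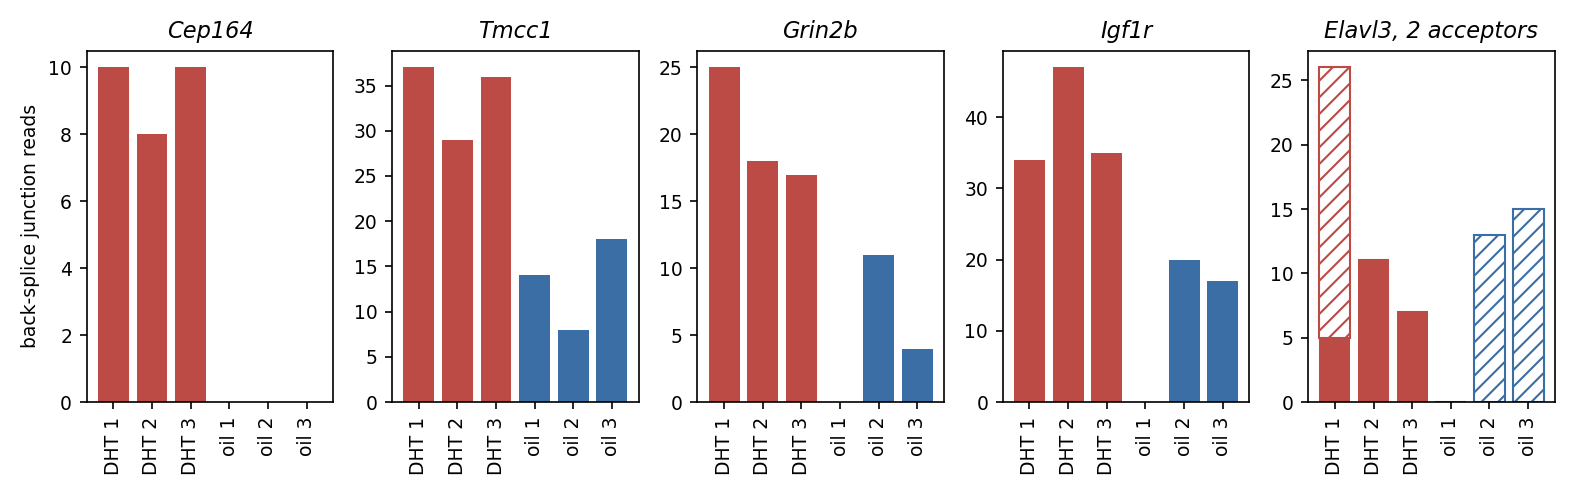
Back-splice junction reads (vertical axes, each from 0) in the 3 DHT and 3 corn oil libraries for Cep164, Tmcc1, Grin2b, Igf1r and the 2 Elavl3 circles whose acceptors lie 3 bases apart, where the filled part is the circle with 5, 11 and 7 reads in DHT and the hatched part its partner. Cep164 is listed in DHT libraries only, oil 1 has 0 reads for Grin2b and Igf1r, and the Elavl3 pair has reads in both groups.

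The ratio of circle to linear reads was compared in the 111 short circles listed in all 6 libraries, since linear counts exist only where a circle is listed. None passed an adjusted limma p of 0.05, as none of all 1581 circles listed in every library did (0%). At an unadjusted p under 0.05, 3 short circles (2.70%) were higher in DHT, against 2.91% of all, and 4 (3.60%) were lower, against 2.4%. The direction of the whole class was near 0, with a median log2 change of -0.01 in short circles and 0.03 in all.

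Tmcc1 was again the first of the higher ones, with a circular share of 9.18% with DHT, against 3.97% with oil, and a log2 ratio change of 1.33 ± 0.44 (SE, limma adjusted p = 0.796). Robo2, a receptor of the axon guidance protein Slit, had 18, 12 and 18 junction reads with DHT, against 7, 9 and 8 with oil, and its log2 ratio change was 1.01 ± 0.42 (SE, limma adjusted p = 0.921), without overlap. St6galnac3, a sialyltransferase, had 32, 7 and 13 reads with DHT, against 7, 7 and 7 with oil. Its log2 ratio change of 1.23 was 0.53 without DHT 1.

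Fat3, an atypical cadherin, led the lower ones, at 3, 4 and 4 reads with DHT, against 8, 9 and 7 with oil (log2 ratio change -1.24 ± 0.42, SE, limma adjusted p = 0.796). Hivep1 had 5, 4 and 2 reads with DHT, against 6, 8 and 6 with oil, with a log2 ratio change of -1.07 ± 0.41 (SE, limma adjusted p = 0.921). The groups did not overlap for either. Aff2 had -0.93 ± 0.43 on the same scale (SE, limma adjusted p = 0.921), with overlap.

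Listing in 1 group alone was counted last. All 3 DHT libraries and no oil library listed 10 short circles (1.36%), against 0.757% of all 11895, and all 3 oil libraries and no DHT library listed 4 (0.543%), against 0.261%. At equal depth these counts were 9 and 5. No test was made of these shares, and the 10 include the Elavl3 circle whose partner was read in oil.

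After Cep164 and Elavl3, the DHT-only circles with most reads were those of Klhl15, a ubiquitin ligase adaptor, with 2, 6 and 7 reads, Frg2f1 with 6, 4 and 4, and Abl1, a tyrosine kinase, with 2, 8 and 2. The oil-only circles were those of Bptf, a subunit of the NURF chromatin remodeller, with 5, 5 and 7 reads, Astn2, an astrotactin of neuronal migration, with 5, 3 and 2, Mtf2, a Polycomb-like protein, with 2, 3 and 5, and Srp72, part of the signal recognition particle, with 2, 2 and 4. Such low counts leave 1 read in a library of the other group unseen, as a list starts at 2.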

How the data were processed

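The authors deposited, for each circRNA of a library, a count of back-splice junction reads and a count of linear reads. The sources used here do not give how linear reads were counted. A circRNA unlisted in a library (fewer than 2 reads) counts as 0, and linear counts exist only where it is listed. The score that the authors deposited scales junction reads to G (giga) mapped reads (SRPBM, per the labels) and is rounded down, and the mapped reads were worked out from it. The authors deposited FPKM values per splicing event and per first or last exon, which gave exon coordinates, host strands, exon inclusion and marker genes (the larger of summed first-exon and last-exon FPKM of a locus). HISAT2 2.0.1, BWA, cutadapt and bcl2fastq 2.17.1.14 are named in the submitters' processing notes, as is the build mm9. Since 99.7% of short circles with a matched host lay within its GRCm38 bounds, coordinates were read as GRCm38. Reads of near-identical copies and of overlapping or antisense genes cannot be told apart.

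Members and gene lists were chosen with earlier results of these data known. All circRNAs with at least 20 reads were tested with edgeR 4.0.16 (quasi-likelihood test, library size from all junction reads, TMM scaling) and, as an alternative, DESeq2 1.42.0. The standard error is the fold change divided by the square root of F. Ratios, log2((circle + 0.5)/(linear + 0.5)), were tested with limma 3.58.1 (R 4.3.3). Adjusted p is Benjamini-Hochberg's over the whole table. Exact two-sided permutation tests served for single values. Both fits were tested on simulated data. Python 3.11.15 and pandas 2.3.3 read the files.

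Named circles were those with most reads, smallest p in each direction, highest and lowest circular share, smallest span in all 6 libraries, most short circles per host, listing in 1 group alone, nearest to the limit, and most reads in each host list. Igf1r, Pik3r1, Ncam1, Atp2b4, Sptbn1, Klc2, Car10, Rad52, Bcl11b and the circles opposite their hosts were named after their values were seen. Some circles that this rule names are not reported here. The SEs of the edgeR and limma fits and the SDs include the spread between libraries, while the floors cover counting error only.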

Additional observations from a re-analysis of the deposited data

How the results depend on the processing

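Of the 12 class-level and count results, differences between DHT and oil kept their direction under the alternatives run, except the pooled circular share, which was 0.0977 percentage points higher in DHT over members in all 6 libraries. Over circRNAs in all 6 libraries, the short class differed within libraries by -0.783 points of share from circles of 1 to 50 kb and by 0.910 points and 2.5 reads from those over 50 kb, all at an exact permutation p of 0.0417, adjusted over the 4 comparisons that this setting gives, against 6 in the report. With a span limit of 500 bp, circles of 500 bp or more joined the class up to 50 kb, and 5 differences turned. Against that class they turned to -0.5 reads and -3.26 points of recurrence. Against circles over 50 kb they turned to -0.26 points of share, -0.167 reads and -0.272 points of recurrence. With 2000 bp, the share against the rest up to 50 kb turned to 0.0991. The cause was not tested. Adjusted edgeR calls over all circRNAs numbered 6 with at least 6 reads, 5 with no filter and 0 otherwise, and unadjusted ones 196, 208 and, with at least 60 reads, 47, against 79. Leaving out each library in turn gave 0 to 1 adjusted calls both for edgeR and for the ratio, 1 only without DHT 2, and neither was a short circle. Merging ends within 10 bases gave 0 adjusted and 82 unadjusted calls. The 10 log2 fold changes and 6 ratio changes of single circles that were recomputed kept their sign under the settings run. No paired analysis was possible because the labels tie no DHT library to an oil library, and the replicate numbers used here only name the libraries. Low reads limit the fits, with a biological coefficient of variation of 0.414 over the circRNAs tested.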
